A study of Mus musculus with 5 samples.

Results

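The 10 genes described here include the receptors for glucocorticoid hormones, Nr3c1 and Nr3c2. Another 6 are known to respond to these hormones: Sgk1, Fkbp5, Tsc22d3, Zbtb16, Ddit4 and Errfi1. Hsd11b1 and Crhr1, also included, act around the hormone and its upstream releasing factor. The genes were found by symbol, and all 10 were among the 23420 gene symbols measured in the dentate gyrus (DG) of the mouse hippocampus. All 10 were also among the 13550 genes called expressed, defined by a mean of 5 or more on the regularized log scale. Each of the 5 groups was measured in 1 library of pooled RNA, so no group has a replicate and no p-value is given.

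All mice were wild-type male mice of the outbred CD1 strain, 4 months old per the labels, and all spent 4 weeks in their housing. LD mice were housed individually with a locked disk (8 mice in the pool), and RUN mice were housed individually with a running disk (8 mice). CE (complex environment) mice were housed socially with a locked disk and tunnels (8 mice), so CE differed from LD and RUN in social housing as well as in its tunnels. The L-RUN and H-RUN pools each held RNA of 4 of the 8 RUN mice, those with the shortest and the longest running distances, so that membership followed the behaviour of the mice and was not assigned. The RUN library therefore shares its mice with L-RUN and H-RUN and is not independent of them. The design addresses whether running and running-independent enrichment alter DG gene expression in different ways.

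Corticosterone, the main glucocorticoid of mice, enters the brain and binds a pair of related nuclear receptors. The mineralocorticoid receptor, encoded by Nr3c2, has the higher affinity and is largely occupied at resting hormone levels, while the glucocorticoid receptor, encoded by Nr3c1, is engaged at the daily peak of the hormone and during stress. The hippocampus is known for expressing both. Bound receptors enter the nucleus and act at glucocorticoid response elements, palindromic DNA motifs near genes such as Fkbp5, Tsc22d3 and Sgk1, or by contacts with other transcription factors. Voluntary running is itself known to raise circulating corticosterone in rodents.

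The Sgk1 locus is shown first because Sgk1 had the largest range among the 10 genes and was the gene with a full palindrome in a promoter window. Windows of 300 bases, from 250 bases before to 50 after an annotated start site, were taken from RefSeq (GRCm38.p6) for 8 of the 10 genes, in 16 windows. The palindrome searched for was AGAACA, any 3 bases, then TGTTCT, which reads the same on both strands. It occurred in 3 of 32851 windows of all genes (0.00913%), and 1 of these was the Sgk1 window at chr10:21993640-21993939, plus strand. The palindrome spans 21993701 to 21993715, positions -189 to -175 from the start site of this window, 965 bases before the most downstream of the 6 Sgk1 start sites. The stretch lies within the annotated span of Sgk1 and overlaps no annotated exon. Its arms also occur alone, and AGAACA or TGTTCT in either orientation was found in 19.0% of all windows and in 4 of the 16 windows of these genes, 3 of Sgk1 and 1 of Tsc22d3. The cAMP response element TGACGTCA, its own reverse complement, was found in 1.79% of all windows and in 1 window of these genes, that of Errfi1. A match describes these letters only and is not evidence of binding. Motifs with other letters, or farther from a start site, were not searched for, and Nr3c1 and Zbtb16 had no window. A gene without a match here may therefore still have a response element. The 250 bases before the Sgk1 start site (21993640 to 21993889) and shorter stretches of Tsc22d3 (chrX:140600672-140600737, minus strand, overlapping no annotated gene) and Errfi1 (chr4:150854989-150855056, plus strand, within the gene and outside its exons) are printed below. Capitals mark the palindrome of Sgk1, the single arm of Tsc22d3 and the cAMP response element of Errfi1; a further single arm in the Sgk1 stretch, at 21993648 to 21993653, is left in lower case.
Sgk1: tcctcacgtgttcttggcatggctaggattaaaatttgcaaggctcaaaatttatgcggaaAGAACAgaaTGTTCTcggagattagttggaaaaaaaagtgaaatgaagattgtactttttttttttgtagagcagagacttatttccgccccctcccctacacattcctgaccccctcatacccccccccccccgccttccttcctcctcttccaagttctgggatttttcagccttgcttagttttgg
Tsc22d3: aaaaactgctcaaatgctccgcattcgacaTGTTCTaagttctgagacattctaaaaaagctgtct
Errfi1: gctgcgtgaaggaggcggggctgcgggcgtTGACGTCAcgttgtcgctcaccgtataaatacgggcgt

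Values are regularized log values, which the authors derived from read counts on a log2 scale, normalized over all 5 libraries and shrunk towards the mean of each gene. A difference between groups is therefore a log2 fold change that is, if anything, reduced in size, and the depth of each library is not known. The error available is technical. The RUN value of a gene can be set against the one computed for L-RUN and H-RUN mixed in equal parts, and the spread of this residual over expressed genes gives a technical SD of 0.0365 for a difference between libraries. For the 10 genes, taken by decile of expression, it lay between 0.0282 and 0.0471, and it holds no differences between mice. In the libraries, 10 of 10 markers of dentate granule cells were expressed, as were 11 of 11 measured markers of CA1 or CA3 pyramidal cells, so neighbouring hippocampal fields may be present in the dissected tissue. Of the 13 expressed markers of leptomeningeal fibroblasts, 12 were lower in H-RUN than in L-RUN by at least 0.3. Of all expressed genes, 1.54% differed that much between these pools in either direction. The marker list was chosen with earlier results of these data known, so this count is a description only. Differences from LD also followed transcript length, with a Spearman correlation across 12741 genes of -0.51 in L-RUN, -0.49 in RUN, -0.37 in H-RUN and -0.33 in CE.

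Both receptor genes were highest in LD and lowest in L-RUN. Nr3c2 (chromosome 8, 76899442 to 77245012) had a value of 11.95 in LD, 11.85 in H-RUN, 11.81 in CE, 11.73 in RUN and 11.55 in L-RUN. The difference from LD was -0.40 in L-RUN, a level 24.3% lower, against -0.22 in RUN, -0.14 in CE and -0.10 in H-RUN (technical SD 0.028). LD stood above every other library by more than 3 technical SDs, but its gap to H-RUN, at 3.57, fell to 2.30 with the trend over transcript length removed and to 2.82 under quantile normalization. L-RUN stood 6.45 technical SDs below RUN, its neighbour in this order. The gaps from H-RUN to CE and from CE to RUN were 1.46 and 2.76 technical SDs, so the order of these 3 libraries is less clear.

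Nr3c1 (chromosome 18, 39410545 to 39519421) had a value of 11.17 in LD, 11.04 in H-RUN, 11.03 in CE, 11.01 in RUN and 10.92 in L-RUN. Its difference from LD was -0.25 in L-RUN (0.840 of the LD level), -0.17 in RUN, -0.14 in CE and -0.13 in H-RUN (technical SD 0.031), smaller than that of Nr3c2 in L-RUN and RUN and close to it in CE and H-RUN. H-RUN, CE and RUN followed each other by less than 1 technical SD and cannot be ordered. The receptors shared LD as the highest and L-RUN as the lowest library. LD was highest for 28.1% of expressed genes, and the share with L-RUN also lowest was not counted. The full order of the receptors was also the same, as in 4.1% of expressed genes, but its middle is not resolved for Nr3c1. Per kilobase of the longest annotated transcript, the mean level over the 5 libraries was 9.21 for Nr3c2 and 8.35 for Nr3c1 on the log2 scale.

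The receptor transcripts are long (5916 bases for Nr3c2 and 6436 for Nr3c1), and in L-RUN genes with long transcripts tended to be lower. The part of the L-RUN difference that the trend over all expressed genes assigns to this length was -0.069 for Nr3c2 and -0.080 for Nr3c1. With the trend removed, the L-RUN difference became -0.33 for Nr3c2 and -0.17 for Nr3c1, both still below LD. In H-RUN it became -0.065 and -0.093. The part of transcript length in these differences was not tested. Of 10 astrocyte markers, Slc1a2 and Slc1a3 were also lower in L-RUN, by -0.36 and -0.30. The median of this list there was -0.11, and 3.13% of expressed genes passed 0.3 in either direction. In any group, 0 of 10 microglial markers passed 0.3, and neither did Nr3c1. The microglial median still lay below LD throughout, at -0.12 for RUN, -0.11 for both runner pools and -0.10 for CE. Aif1, a microglial marker, was above LD in every group. The part of astrocytes and microglia in the receptor values was not tested. L-RUN differences of the 10 genes are shown against transcript length in the plot with the quartiles of all expressed genes.

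**Figure D1:**
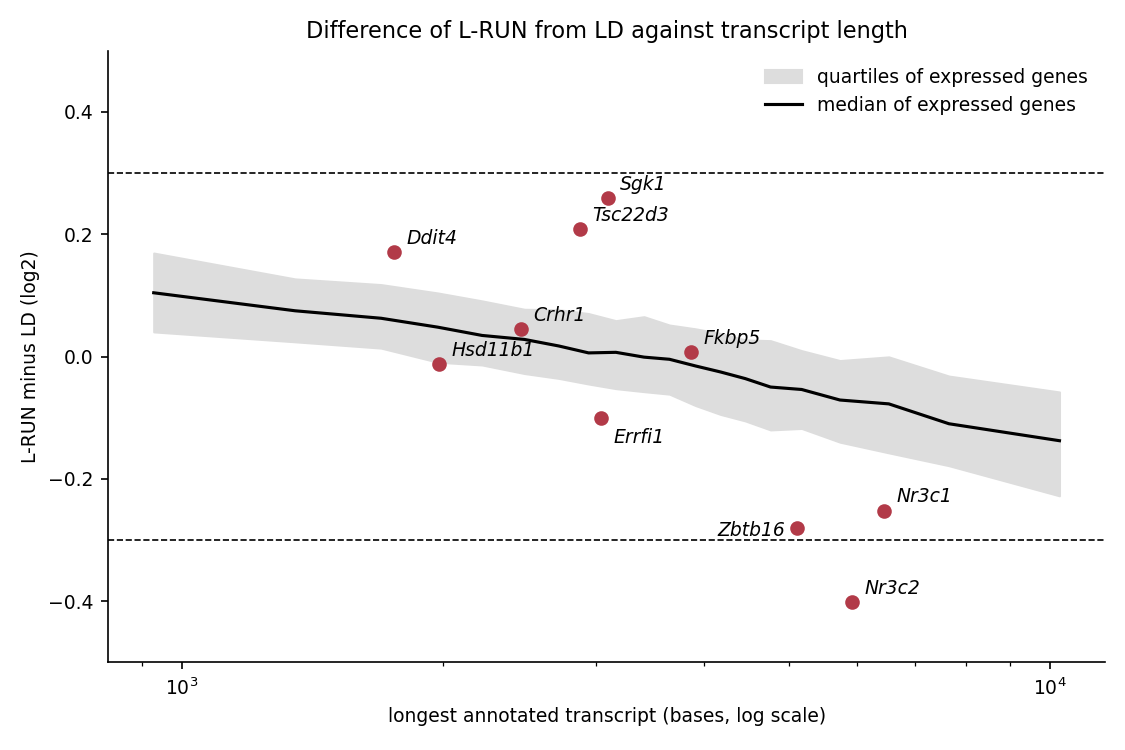
Difference of L-RUN from LD (log2) on the vertical axis against the longest annotated transcript (bases, log scale); points are the 10 genes, the line and band are the median and quartiles of 20 bins of expressed genes, and dashed lines mark 0.3 in either direction. The band falls from short to long transcripts, and Nr3c2, at -0.40, lies farthest below it.

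Hsd11b1 and Crhr1, which act around the hormone and its upstream releasing factor, stayed within 3 technical SDs of LD in every group. Their ranges over the 5 libraries, 0.138 and 0.160, were above the median range of expressed genes (0.124). Hsd11b1 (chromosome 1, 193221634 to 193264075), the enzyme that regenerates active corticosterone from its inert form within cells, had a value of 9.73 in H-RUN, 9.72 in RUN, 9.70 in LD, 9.68 in L-RUN and 9.59 in CE. The 4 highest of these followed each other by less than 1 technical SD, and CE was 0.10 below LD, or 2.53 technical SDs, and 0.12 below RUN, or 3.05. Crhr1 (chromosome 11, 104132855 to 104175523), a receptor for corticotropin-releasing hormone, had a value of 8.39 in RUN, 8.37 in L-RUN, 8.36 in CE, 8.32 in LD and 8.23 in H-RUN. H-RUN was lowest, at -0.092 from LD and -0.14 from L-RUN, both under 3 technical SDs, and RUN stood 0.160 above it, or 3.39 technical SDs. For Crhr1, RUN lay above both of its constituent pools, and its value exceeded the computed mixture by 0.090, over 2 SDs of such a residual.

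Sgk1 (chromosome 10, 21882184 to 21999903) had the largest range of the 10 genes and was higher in all runner libraries than in both non-runner libraries. It encodes a serum- and glucocorticoid-inducible kinase that acts on ion channels and transporters, and it is also induced by neuronal activity and growth factors. Its value was 11.08 in H-RUN, 10.88 in RUN, 10.79 in L-RUN, 10.60 in CE and 10.54 in LD. The difference from LD was 0.55 in H-RUN (1.46-fold), 0.35 in RUN (1.27-fold), 0.26 in L-RUN (1.20-fold) and 0.064 in CE (1.05-fold), with a technical SD of 0.031. In H-RUN, 99.96% of expressed genes had a smaller difference from LD in either direction. H-RUN stood 6.51 technical SDs above RUN, and L-RUN stood 6.34 above CE, while CE and LD were 2.07 apart. L-RUN was thus above LD by 8.40 technical SDs and below the cut-off of 0.3.

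H-RUN exceeded L-RUN in Sgk1 by 0.29, or 9.31 technical SDs, and CE was lower than RUN by 0.28. The RUN value lay between its constituent pools and was 0.064 below their computed mixture, 2.41 SDs of such a residual. For 7 of the 10 genes, and for 58.3% of expressed genes, the RUN value fell between those of its pools. Among the 10 genes, Sgk1 and Crhr1 had residuals over 2 SDs, and 4.90% of expressed genes did. The Sgk1 transcript has an intermediate length (3096 bases), and removal of the length trend left its difference at 0.54 in H-RUN and 0.25 in L-RUN.

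**Figure D2:**
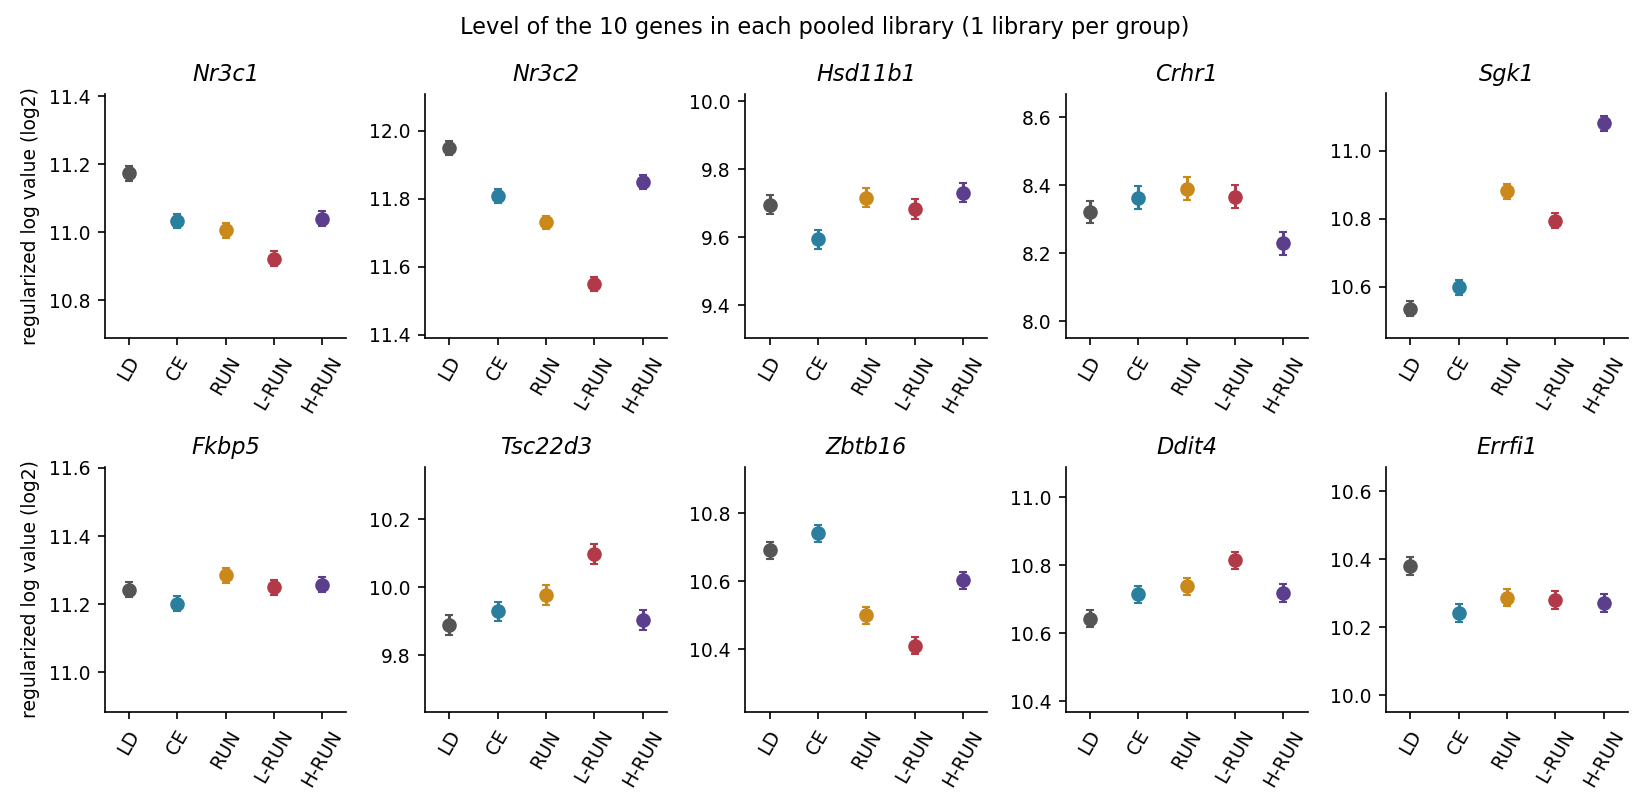
Regularized log value (log2, vertical axes of equal span) of each gene in the 5 libraries, 1 library per group, with bars of 1 technical SD of a single library. Nr3c1 and Nr3c2 are highest in LD and lowest in L-RUN, and Sgk1 is lowest in LD and highest in H-RUN at 11.08.

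All 3 runner libraries were above both non-runner libraries for 3 of the 10 genes, Sgk1, Fkbp5 and Ddit4, as for 15.2% of expressed genes, but no difference of Fkbp5 or Ddit4 from LD reached the cut-off of 0.3. They were below both for 1 gene, Zbtb16, as for 16.2% of expressed genes. Fkbp5 (chromosome 17, 28399094 to 28517527), a co-chaperone that lowers the hormone affinity of the receptor and is itself induced by it, had a value of 11.29 in RUN, 11.26 in H-RUN, 11.25 in L-RUN, 11.24 in LD and 11.20 in CE. Its whole range was 0.085, the only range among the 10 genes under 3 technical SDs, and 23.7% of expressed genes had a smaller range. Zbtb16 (chromosome 9, 48654297 to 48836222), a zinc finger transcription factor, had a value of 10.74 in CE, 10.69 in LD, 10.60 in H-RUN, 10.50 in RUN and 10.41 in L-RUN. It was lower than LD in RUN by -0.19 and in L-RUN by -0.28 (technical SD 0.036), and it was higher in CE than in RUN by 0.24. H-RUN was 2.44 technical SDs below LD for Zbtb16. With the length trend removed, the L-RUN difference of Zbtb16 (5114 bases) became -0.23.

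Tsc22d3 (chromosome X, 140539528 to 140600659) encodes GILZ, a leucine zipper protein that mediates part of the anti-inflammatory action of glucocorticoids. Its value was 10.10 in L-RUN, 9.98 in RUN, 9.93 in CE, 9.90 in H-RUN and 9.89 in LD. L-RUN stood apart, at 0.21 above LD and 0.19 above H-RUN (technical SD 0.040), and the other differences from LD were under 3 technical SDs. Ddit4 (chromosome 10, 59949669 to 59951834), an inhibitor of mTOR signaling induced by stress and glucocorticoids, had a value of 10.81 in L-RUN, 10.74 in RUN, 10.72 in H-RUN, 10.71 in CE and 10.64 in LD. Its L-RUN difference was 0.17, or 4.73 technical SDs, and became 0.11 with the length trend removed, its transcript being short (1755 bases).

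Beside the L-RUN values of Tsc22d3 and Ddit4 stand those of the leptomeningeal markers, a list chosen with earlier results known. Of 13, 10 were higher than LD by at least 0.3 in L-RUN, 7 in RUN and 3 in CE. Of expressed genes, 3.13%, 1.31% and 0.598% passed 0.3 in either direction in these groups. In H-RUN, 0 of the markers were higher and 2 were lower, Ogn by -0.68 and Dcn by -0.52, beside 0.827% of expressed genes. The largest of these L-RUN differences were 1.096 for Igf2, 1.01 for Fmod, 0.83 for Slc13a4 and 0.71 for Aebp1. The summed level of all 16 listed markers was 12.55 in L-RUN, 12.19 in RUN, 12.12 in CE, 11.94 in LD and 11.78 in H-RUN on the log2 scale, and 3 of them (Aox3, Foxc2 and Alx4) were under the expression minimum. Their part in these results was not tested. In pooled tissue, fewer cells of a type and less RNA per cell cannot be told apart.

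Errfi1 (chromosome 4, 150853919 to 150868892), a feedback inhibitor of the EGF receptor, was highest in LD, at 10.38, and read 10.29 in RUN, 10.28 in L-RUN, 10.27 in H-RUN and 10.24 in CE. The 4 libraries other than LD followed each other by less than 1 technical SD, and LD was 0.093 to 0.14 above them (technical SD 0.036).

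Of the 40 gaps between neighbouring libraries in the order of each of these genes, 5 reached 3 technical SDs, and 18 were under 1. LD was the highest of the 5 libraries for 3 of the 10 genes (Nr3c1, Nr3c2 and Errfi1), as it was for 28.1% of expressed genes. LD was the lowest for 3 others (Sgk1, Tsc22d3 and Ddit4), as for 25.8% of expressed genes.

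Counted at the cut-off of 0.3, which the study used, few of the 10 genes were called changed. No member passed it in CE against LD, where 0.598% of expressed genes did. In RUN, 1 gene passed, Sgk1, beside 1.31% of expressed genes. In H-RUN, 1 gene passed, again Sgk1, beside 0.827%. In L-RUN, 1 gene passed, Nr3c2, beside 3.13%. Directly between runner pools, Nr3c2 was 0.301 higher in H-RUN than in L-RUN, just at the cut-off, where 1.54% of expressed genes passed; centred on the median of all genes this value was 0.298 and the call was lost. Between CE and RUN, 0 of the 10 genes passed, beside 0.834% of expressed genes. These comparisons share libraries, LD in the first 4, and are not independent of each other. The median of the 10 differences was -0.037 in H-RUN, -0.0026 in L-RUN, 0.032 in RUN and -0.00079 in CE, beside medians over all expressed genes between -0.0035 and -0.0013. The median size of the difference, whatever its direction, was 0.068 for the 10 genes and 0.060 for all expressed genes in CE. It was 0.094 against 0.059 in RUN, 0.090 against 0.052 in H-RUN and 0.19 against 0.074 in L-RUN.

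**Figure D3:**
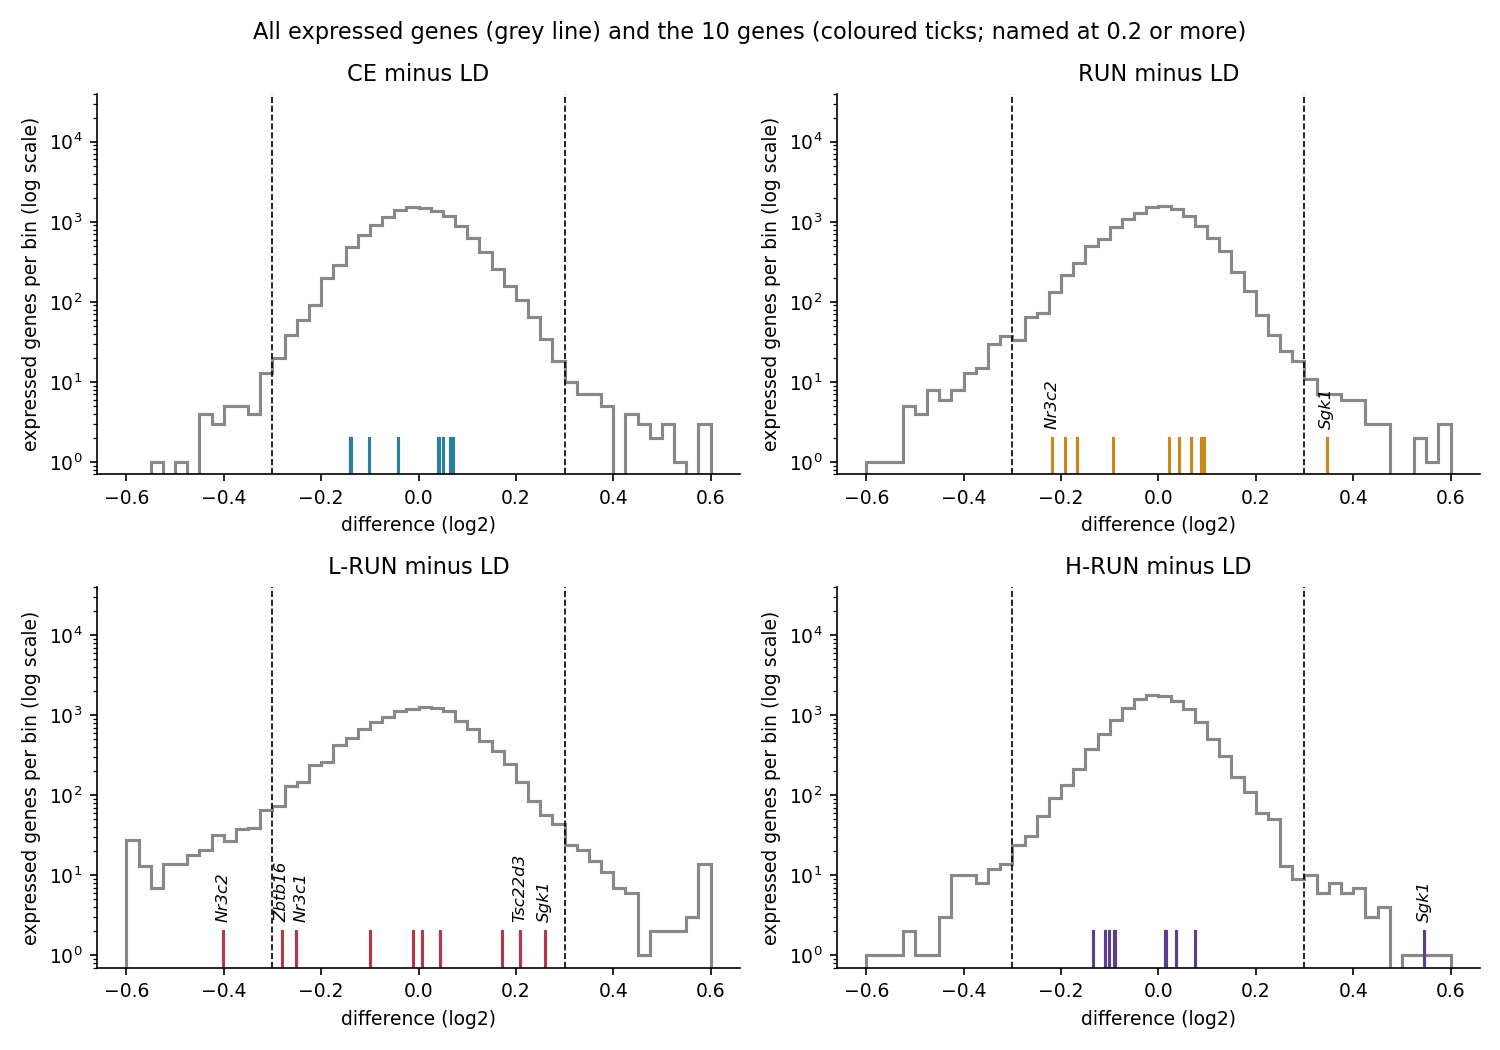
Number of expressed genes per bin (log scale) against the difference from LD (log2) in 4 panels, with ticks for the 10 genes and names for those at 0.2 or more; the outermost bins also hold all genes beyond them and dashed lines mark the cut-off of 0.3. Sgk1 lies past the cut-off in RUN and H-RUN, at 0.35 and 0.55, and Nr3c2 in L-RUN.

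A limit of 3 technical SDs was added after the data had been seen, and it covers technical noise alone. More of the 10 genes passed it, as did more of the background. In CE, 3 of the 10 genes passed this limit (Nr3c1, Nr3c2 and Errfi1, all lower), beside 23.7% of expressed genes. In RUN, 4 passed (Sgk1 higher, and Nr3c1, Nr3c2 and Zbtb16 lower), beside 24.3%. In H-RUN, 4 passed (Sgk1 higher, and Nr3c1, Nr3c2 and Errfi1 lower), beside 18.8%. Errfi1 was at 3.005 technical SDs there. In L-RUN, 6 passed (Sgk1, Tsc22d3 and Ddit4 higher, and Nr3c1, Nr3c2 and Zbtb16 lower), beside 32.7%. The count in CE is near its background share, and the count in H-RUN fell to 2 under quantile normalization. The 10 genes were chosen with earlier results of these data known, so these counts describe them only.

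**Figure D4:**
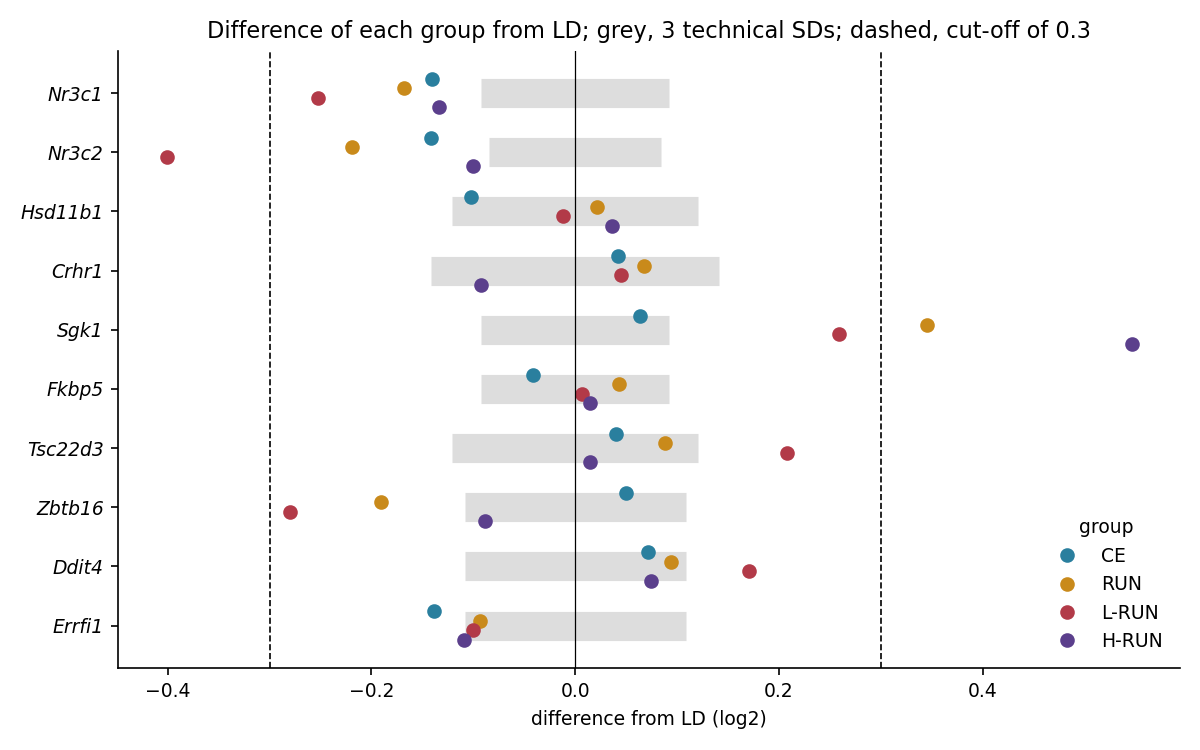
Difference of each other group from LD (log2, horizontal axis) for the 10 genes (vertical axis), 1 point per library; grey bars span 3 technical SDs on either side of 0 and dashed lines mark 0.3. Sgk1 in H-RUN (0.55) and Nr3c2 in L-RUN (-0.40) lie farthest out, and all points of Fkbp5, Hsd11b1 and Crhr1 lie within the grey bars.

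The 5 expressed genes whose pattern over the 5 libraries was nearest to that of Sgk1, by the root mean square distance of values centred on each gene's mean, were Nptx2, Lrrc10b, Drd1a, Kcnj2 and Pappa, at distances from 0.043 to 0.052 among 693 genes with a range of at least 0.3. Nptx2 encodes a secreted pentraxin of excitatory synapses, Drd1a the dopamine D1 receptor, Kcnj2 an inwardly rectifying potassium channel, and Pappa a protease that cleaves IGF binding proteins. Nptx2 had a value of 9.50 in LD, 9.51 in CE, 9.70 in L-RUN, 9.82 in RUN and 9.92 in H-RUN. In H-RUN the difference from LD was 0.42 for Nptx2, 0.41 for Lrrc10b, 0.43 for Drd1a, 0.39 for Kcnj2 and 0.46 for Pappa. Nr3c2 and Zbtb16, the other members with such a range, came 306th and 388th in this ranking. A likeness over 5 libraries that share mice is a description of these libraries.

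**Figure D5:**
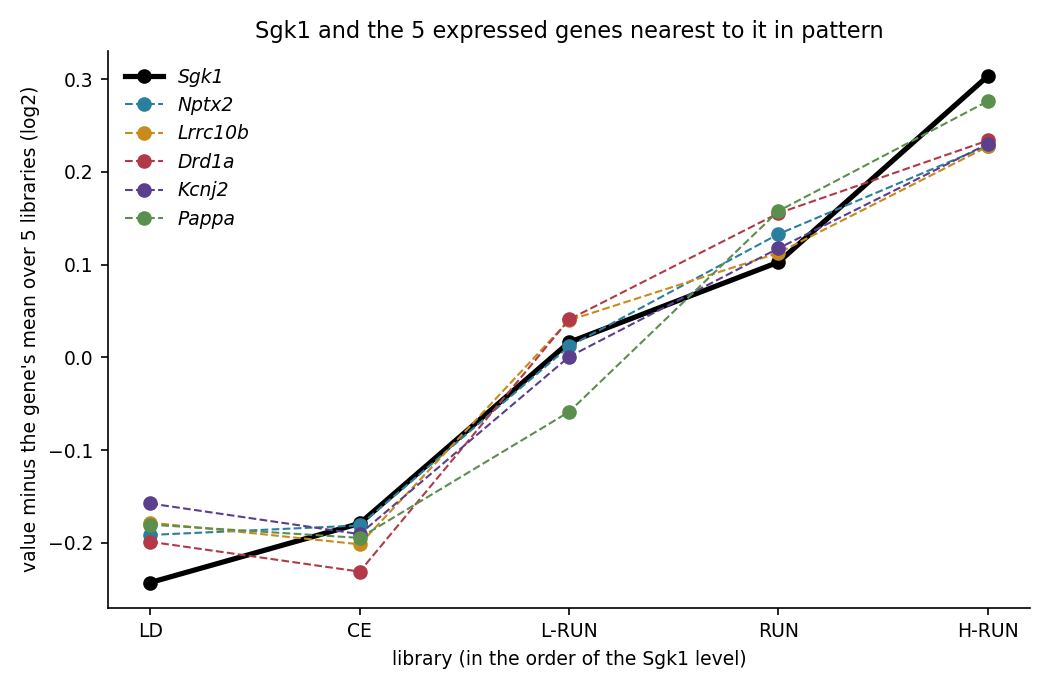
Value of Sgk1 and of the 5 nearest genes minus each gene's mean over the 5 libraries (log2, vertical axis), with the libraries on the horizontal axis in the order of the Sgk1 level. All 6 genes are low in LD and CE and highest in H-RUN.

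Immediate early genes, which neurons induce upon activity, as they do Sgk1, are given beside Sgk1. Of 14 expressed genes on this list of 16, 0 passed the cut-off in CE and H-RUN, 1 in RUN and 4 in L-RUN. All of those were lower than LD. Of all expressed genes, 0.598% passed in CE, 0.827% in H-RUN, 1.31% in RUN and 3.13% in L-RUN, in either direction. Nr4a3 differed by -0.51 in L-RUN against -0.18 in H-RUN, and Arc by -0.45 against -0.15. Nr4a1 and Egr3 differed in L-RUN by -0.35 and -0.33. The list's median difference was -0.067 in H-RUN, -0.19 in L-RUN, -0.14 in RUN and 0.036 in CE. Directly between runner pools, 13 of the 14 were higher in H-RUN than in L-RUN. The list's median was 0.11, beside 0.0028 over all expressed genes. The part of neuronal activity in the Sgk1 values was not tested. Oligodendrocytes are another known source of Sgk1, and 0 of 12 oligodendrocyte markers passed the cut-off against LD in any group, with summed levels of 15.14 in LD, 15.11 in H-RUN, 15.04 in CE, 15.03 in RUN and 14.94 in L-RUN on the log2 scale. All 12 were higher in H-RUN than in L-RUN, by 0.070 to 0.23. The same direction held for 9 of 10 astrocyte, 9 of 11 CA1 or CA3 and 6 of 10 granule cell markers. It held for 3 of 4 choroid plexus, 5 of 10 endothelial and 4 of 10 microglial markers. For interneuron markers it was 2 of 9, and for leptomeningeal markers 0 of 13. The share of all expressed genes with this direction was not counted, so these counts have no background beside them. The H-RUN minus L-RUN difference also followed transcript length, with a Spearman correlation of 0.34 across 12741 genes. The part of oligodendrocytes in the Sgk1 values was not tested.

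Other genes of the pathway were taken from lists chosen with earlier results of these data known. Among 23 chaperones and cofactors of the receptors, all expressed, 1 passed the cut-off, in RUN and L-RUN, where 1.31% and 3.13% of expressed genes did. This was Nrip1, a corepressor that nuclear receptors recruit when bound to their ligand, which read 8.16 in LD, 7.92 in both CE and H-RUN, 7.77 in RUN and 7.60 in L-RUN. Its difference was -0.39 in RUN and -0.56 in L-RUN (technical SD 0.047), and -0.45 in L-RUN with the length trend removed. LD was at the top and L-RUN at the bottom, as for Nr3c1 and Nr3c2. LD was the highest library for 28.1% of expressed genes, and the share with L-RUN also lowest was not counted. The median of this list was between -0.043 and -0.032 in the 4 groups. The chaperone Fkbp4, which acts opposite to Fkbp5 on the receptor, differed from LD by at most 0.069 in size.

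Of 14 genes of steroid supply and the CRH system, 10 were expressed and 0 passed the cut-off in any group, with medians between -0.022 and 0.00093. From 0.598% (CE) to 3.13% (L-RUN) of all expressed genes passed it. Hsd11b2, the enzyme that inactivates corticosterone and shields the mineralocorticoid receptor in kidney, was under the minimum, at 0.42 to 0.44 in every library, as were Ucn, Ucn2 and Ucn3. Crhbp, which sequesters CRH, had the value 7.56 in LD and 7.68 in CE, against 7.40 to 7.44 in the runner libraries, all within 0.3 of LD.

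Of 26 other genes known to respond to glucocorticoids, 25 were expressed. At the cut-off, 2 were higher in L-RUN, 1 in RUN, 1 in CE and 0 in H-RUN, and 0 were lower. Of all expressed genes, 3.13% passed in L-RUN, 1.31% in RUN, 0.598% in CE and 0.827% in H-RUN, in either direction. Mt1, a metal-binding metallothionein, had a value of 11.58 in L-RUN, 11.57 in CE, 11.49 in RUN, 11.44 in H-RUN and 11.18 in LD, so that it was lowest in LD. Its difference from LD was 0.41 in L-RUN, 0.26 in H-RUN, 0.31 in RUN and 0.39 in CE. Mt2 was also lowest in LD, by 0.17 to 0.25. Gjb6, a gap junction protein of astrocytes, was higher by 0.34 in L-RUN. With the length trend removed, the L-RUN difference became 0.31 for Mt1, 0.047 for Mt2 and 0.295 for Gjb6, the last then under the cut-off. The receptor targets Per1 and Klf9 differed by -0.12 and -0.21 in L-RUN and by -0.017 and -0.019 in H-RUN. The list's median was 0.024 in H-RUN, 0.078 in L-RUN, 0.031 in RUN and 0.020 in CE.

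Markers of other cell types moved in places. The share of all expressed genes past 0.3, whatever the direction, was 3.13% for L-RUN, 1.31% for RUN, 0.827% for H-RUN and 0.598% for CE. C1ql2, of dentate granule cells, was higher in H-RUN by 0.40 and in both RUN and L-RUN by 0.37. Plk5 was higher in L-RUN by 0.36, and Prox1 was lower there by -0.41. The median of the granule cell list lay below LD throughout, at -0.12 for L-RUN, -0.065 for H-RUN, -0.047 for RUN and -0.16 for CE. Among CA1 or CA3 markers, 4 were lower and 1 was higher in L-RUN, Col6a1. The median difference of this list from LD was -0.18 for L-RUN, -0.052 for RUN, 0.019 for H-RUN and 0.020 for CE. The 4 genes of this list that moved most, each at its largest difference from LD, were Col6a1 (0.52 in CE), Fibcd1 (-0.52 in H-RUN), Pou3f1 (-0.42 in L-RUN) and Bok (0.41 in H-RUN). Col6a1 encodes a collagen chain, and the paper groups it with the extracellular matrix. Its H-RUN minus L-RUN difference was -0.55, against a list median of 0.18. Of 10 endothelial markers, Flt1 was lower by -0.31 in RUN and -0.43 in L-RUN, beside list medians of -0.0081 and -0.039. Of 9 interneuron markers, Sst was higher in CE (0.34) and L-RUN (0.30), and Npy in L-RUN (0.32). The median of this list was 0.053 in CE and -0.031 in L-RUN. Of 9 choroid plexus markers, 4 were expressed, and Ttr was higher in CE by 0.62. Kl, Prlr and Enpp2 differed there by 0.025, -0.0031 and 0.0052. The part of these cell types in the values of the 10 genes was not tested.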

How the data were processed

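RNA of microdissected DG was pooled within each group and sequenced as 1 library per group. The authors trimmed adapters, mapped reads to mm10 with TopHat2 2.0.10, used HTSeq to count them per RefSeq gene, and deposited regularized log values on the log2 scale, made with DESeq2 1.10.1. Counts were not used here, so depth is unknown and no interval from counting is given.

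Group values were subtracted from each other, with a cut-off of 0.3. The technical SD came from the residual of RUN against the linear mean of L-RUN and H-RUN (median absolute deviation, by decile), its variance taken as 1.5 times that of a library. The trend with transcript length was a lowess curve (fraction 0.3) over the 94.0% of expressed genes with a length in GENCODE M21 (GRCm38), which also gave positions. All 10 genes are named, with up to 4 genes of each other list that passed the cut-off and any others chosen after their values were seen. The 10 genes and all lists were chosen with earlier results of these data known. The code was tested on simulated data. Python 3.11.15, numpy 2.4.6, pandas 2.3.3 and statsmodels 0.14.6 were used.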

Additional observations from a re-analysis of the deposited data

How the results depend on the processing

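No paired analysis was possible because each group has 1 library. Counts at the cut-off moved as follows. A cut-off of 0.2 gave 2 genes in RUN, 5 in L-RUN, 2 in H-RUN minus L-RUN and 2 in CE minus RUN, and a cut-off of 0.4 gave 0 in RUN and 0 in H-RUN minus L-RUN. Against LD and CE averaged, 2 genes passed in L-RUN, Zbtb16 joining Nr3c2. The shares of all expressed genes at these cut-offs and against this average were not counted. These counts therefore show only how the calls moved. The call of Nr3c2 between H-RUN and L-RUN was lost, leaving 0 genes, with differences centred on their median, with quantile normalization and with the length trend removed. Under the limit of 3 technical SDs, a rule added after seeing the data, quantile normalization left 2 genes in H-RUN, losing Nr3c2 and Errfi1. There, Nr3c2 was also lost with the length trend removed, and Errfi1 with centring. With the length trend removed, Hsd11b1 passed in CE and Errfi1 in L-RUN. Other counts were within 1.5 times of those given, and no called difference changed sign. Of 60 single differences, 15 moved by more than 1 technical SD when the length trend was removed, 3 under quantile normalization and 0 under centring. With 1 library per group, nothing here covers differences between mice, and shrinkage of low values cannot be undone.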
